A study of Mus musculus with 30 samples.

Results

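The 40 genes described here encode RNA-binding proteins and kinases that set how pre-mRNA is spliced: 10 SR proteins (Srsf1 to Srsf7 and Srsf9 to Srsf11), the SR-like activators Tra2a and Tra2b, 19 hnRNPs, the 3 polypyrimidine-tract-binding genes Ptbp1, Ptbp2 and Ptbp3, the RNA-binding genes Rbm3, Rbm5, Rbm25 and Rbm39, and the splicing kinases Clk1 and Clk4. They were taken from a list of mouse symbols and not by a cutoff on measured values, but the list was chosen with earlier results of these data known. Each was matched by its Ensembl identifier to 1 of the 57186 rows of the count table. All 40 passed the filter on low counts in both lines. RNA was measured in NIH/3T3, an established mouse fibroblast line, and in CGR8, a mouse embryonic stem cell line grown in serum-free N2B27 with 2i inhibitors and LIF. Both lines carried the ROSA26 SLT knock-in in every library used here, untreated libraries included. Cells received cycloheximide (CHX), an inhibitor of translation elongation, at 0.1 µg/mL for 0, 1, 2, 5 or 48 h, with 3 replicate libraries (A, B and C) for each line and time and 30 libraries in all. The comparisons asked how RNA levels in each line at each time of cycloheximide differed from those at 0 h. These data hold no measure of protein synthesis, so the degree of its inhibition is not known here. The only untreated libraries are those of 0 h, so time in culture and cycloheximide cannot be told apart at later times. The labels do not say whether replicates were separate cultures, so p-values measure only the spread between these libraries.

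As background, SR proteins bind exonic enhancers and mostly promote the use of nearby splice sites, whereas many hnRNPs bind silencers and oppose them, and the balance between the classes sets many alternative exons. CLK kinases phosphorylate the arginine-serine domains of SR proteins in the nucleus. Many genes of both classes control their own level by retaining introns or by splicing in a poison exon, which carries a stop codon that ends the reading frame early. Transcripts with such an exon are degraded by nonsense-mediated decay (NMD), a pathway that needs translating ribosomes. Counts per gene do not separate transcripts with and without such exons, so the share of each could not be measured here.

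Of the 40 genes, 29 (72.5%) have at least 1 transcript annotated as an NMD target in GENCODE M21, and 32 have an annotated retained-intron transcript. In 10 genes an NMD transcript contains an exon that lies within an intron of the coding transcripts, is absent from all of them and holds that transcript's stop codon: Srsf3, Srsf7, Srsf9, Srsf11, Tra2a, Tra2b, Hnrnpl, Rbm3, Rbm25 and Rbm39. The sequences below are shown because they are the annotated frame-ending exons of 5 genes that rose in both lines at 5 h and of Hnrnpl, which was called in opposite directions in the lines. Each runs 5′ to 3′ on the transcript strand from the first base of the exon to its stop codon, which is in capitals, with coordinates on GRCm38, the build of that annotation and not of the deposited counts. The stretches lie at chr17:29039454-29039487 (plus strand, in exon 4 of the 7 exons of transcript Srsf3-201), chr17:80205054-80205081 (minus strand, exon 4 of 9, Srsf7-203), chr6:49252965-49253108 (minus strand, exon 2 of 9, Tra2a-202), chr16:22259181-22259261 (minus strand, exon 2 of 10, Tra2b-206), chrX:8144383-8144445 (minus strand, exon 4 of 8, Rbm3-207) and chr7:28817335-28817393 (plus strand, exon 6 of 13, Hnrnpl-213).
Srsf3: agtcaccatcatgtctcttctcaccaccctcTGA
Srsf7: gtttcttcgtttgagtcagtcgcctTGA
Tra2a: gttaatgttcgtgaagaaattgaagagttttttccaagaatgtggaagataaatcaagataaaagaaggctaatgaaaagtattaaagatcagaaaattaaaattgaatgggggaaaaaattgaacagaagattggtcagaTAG
Tra2b: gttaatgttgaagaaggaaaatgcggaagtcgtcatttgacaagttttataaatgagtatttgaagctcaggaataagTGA
Rbm3: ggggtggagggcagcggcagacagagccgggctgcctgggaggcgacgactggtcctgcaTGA
Hnrnpl: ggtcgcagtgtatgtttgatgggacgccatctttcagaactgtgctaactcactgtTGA
The exons of the SR genes are long, 456 bases in Srsf3 and 460 in Srsf7, and the stop comes 34 and 28 bases into them. The exons of the paralogs Tra2a (306 bases) and Tra2b (276 bases) open with the same 9 letters, gttaatgtt, and end the frame after 144 and 81 bases. The Rbm3 exon (271 bases) and the Hnrnpl exon (70 bases) end it after 63 and 59 bases. In each of these 6 transcripts at least 3 exons follow the one shown.

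Library totals ranged from 18216993 to 30503109 counts, and the lowest count of any of the 40 genes in any library was 162, for Clk4. The stem cell markers fixed for this work summed to 4912 to 6842 CPM (counts scaled to library size) in CGR8 and to 224 to 414 CPM in NIH/3T3. There Pou5f1, Nanog, Zfp42, Esrrb, Dppa5a and Tdgf1 stayed under 1 CPM. The rest of that list was present in NIH/3T3. Klf4 was at 193 to 390 CPM there and at 136 to 403 CPM in CGR8, and Sox2 at 19.1 to 32.3 and 228 to 443 CPM. The fibroblast markers summed to 11671 to 19290 CPM in NIH/3T3 and to 901 to 1846 CPM in CGR8, and Thy1 was under 1 CPM in every NIH/3T3 library. In CGR8, Fn1 was at 388 to 1136 CPM, Vim at 269 to 648 CPM and Sparc at 107 to 303 CPM, while Col1a1, Col1a2, Col3a1 and Lox stayed under 1 CPM. The libraries that stood apart from their replicates numbered 3: NIH/3T3 1 h C, NIH/3T3 2 h A and CGR8 0 h B. Most counts of called genes that include them, and the changes of some single genes, are also given without them. The other values of single genes are given only with them. The shares of all genes called without these libraries are not given here, so the counts without them have no background beside them. Ribosomal protein genes took 5.85% to 6.46% of counts at 0 h and 7.66% to 8.15% at 5 h in NIH/3T3, and 6.83% to 8.34% and 10.0% to 14.1% in CGR8, and the part of this shift in the results was not tested. Exonic length here is the number of bases covered by the exons of all annotated transcripts of a gene, which can exceed the length of any 1 transcript. Across all genes, the change at 5 h fell with exonic length (Spearman's rho across genes -0.234 in NIH/3T3 and -0.417 in CGR8, which is descriptive). Over the 40 genes rho was 0.190 and -0.105. Pseudogenes resembling the 40 genes held at most 2.05% of their parents' counts in any library, except for Hnrnpk, with 6.83% to 8.69%. Hnrnpm shares exonic sequence on the same strand with March2, and Hnrnpul2 with AC129217.1. The counting tool and its use of strand are not given in the sources used here, so reads of overlapping genes may be mixed for these genes. The same holds for genes that overlap another on the opposite strand, among them Srsf2, Srsf4, Hnrnpab and Ptbp1.

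In untreated cells the 40 genes were more abundant in CGR8 than in NIH/3T3 in most cases. They took 1.71% of counts in CGR8 and 1.10% in NIH/3T3 (means of 3 libraries). By edgeR's quasi-likelihood test in the model of all 30 libraries, 28 of 40 genes were higher in CGR8, 2 were lower and 10 did not pass, against a background of 79.1% of 17549 genes called, 42.8% higher and 36.3% lower. The median log2 difference was 0.49 over the 40 genes and 0.15 over all genes. Without CGR8 0 h B and the other libraries that stood apart, 31 were higher and 2 lower. A difference in the share of cells that express a gene and one in RNA per cell cannot be told apart in these bulk samples.

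Per kilobase of annotated exonic length, Hnrnpa1, a classical splicing repressor, had the highest level among the 40 genes in both lines, at 298 ± 7.38 CPM per kb in NIH/3T3 and 407 ± 45.05 CPM per kb in CGR8 (SD, n = 3). Srsf2, which encodes the speckle protein SC35, came next, at 159 ± 7.20 and 217 ± 7.36 CPM per kb. The lowest levels on this scale were those of Ptbp2 in NIH/3T3 and of Clk4 in CGR8. In CPM not divided by length, Srsf4 was the lowest of the 40 genes in NIH/3T3, at 17.3 ± 1.57 CPM. Ptbp2, the paralog of Ptbp1 best known from neurons, was at 3.42 ± 0.262 and 3.20 ± 0.573 CPM per kb, and Clk4 at 4.36 ± 0.15 and 3.14 ± 0.784 CPM per kb. Ptbp2 and Clk4 did not pass the test between the lines, with log2 differences (CGR8 over NIH/3T3) of -0.09 (SE 0.21, adjusted p = 0.692) and -0.47 (SE 0.23, adjusted p = 0.0665). The largest differences were in Rbm25, an SR-associated splicing factor, at 1.37 (SE 0.16, adjusted p = 1.36e-08), and in Hnrnpd, the AU-rich element binding protein AUF1, at 1.35 (SE 0.10, adjusted p = 7.06e-13). On the scale of the model of 30 libraries, Hnrnpd stood at 234, 189.8 and 205 CPM in NIH/3T3 and at 501, 535 and 568 CPM in CGR8. Tra2b was higher in CGR8 (log2 change 1.17, SE 0.07, adjusted p = 2.49e-14), whereas its paralog Tra2a had a log2 difference of 0.13 (SE 0.11, adjusted p = 0.267). Lower in CGR8 were Ptbp3 (log2 change -0.62, SE 0.16, adjusted p = 0.00107) and Hnrnph2 (log2 change -0.41, SE 0.10, adjusted p = 0.000326).

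**Figure D1:**
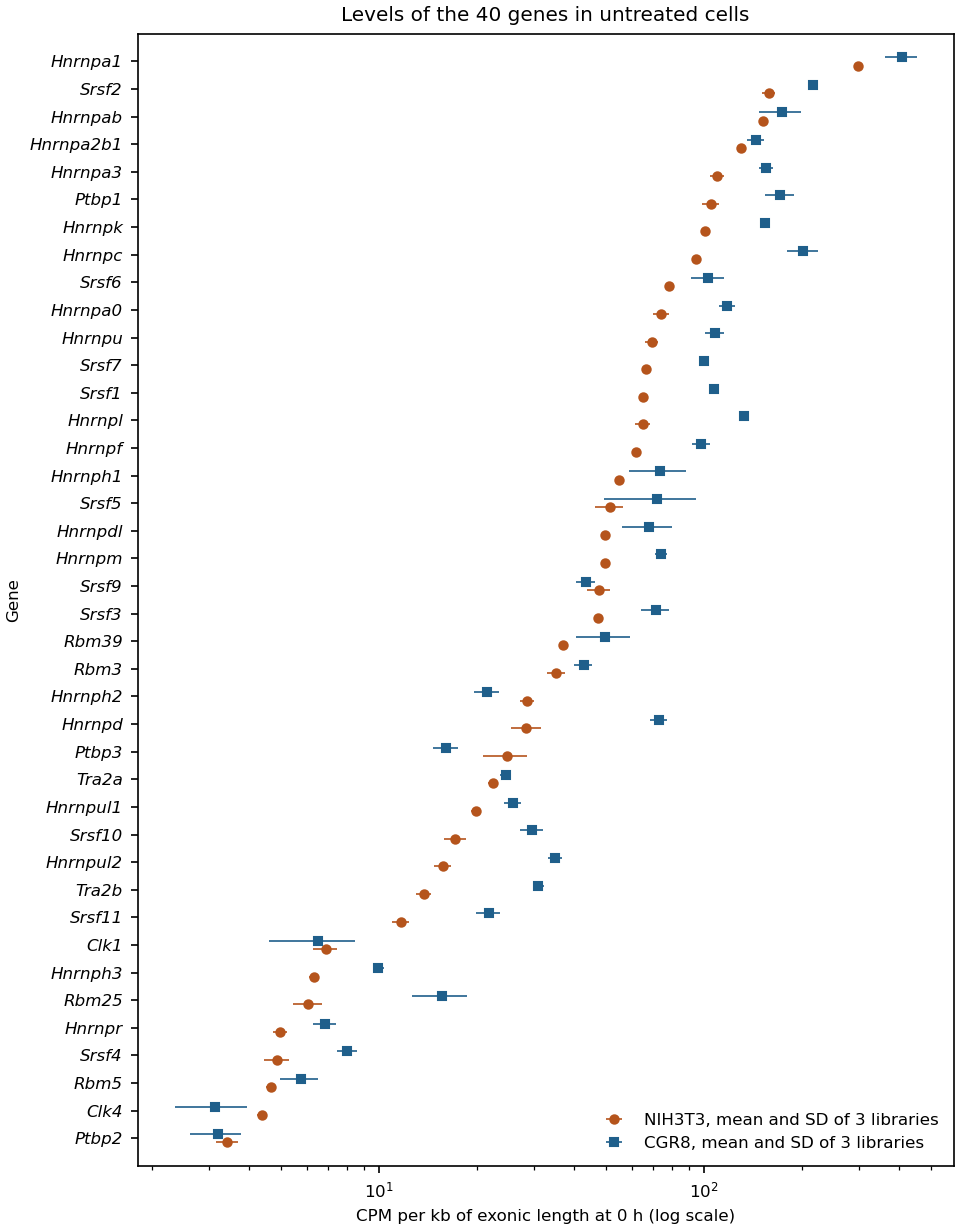
Level of each of the 40 genes at 0 h in CPM per kb of GENCODE M21 exonic length (log scale), for NIH/3T3 (circles) and CGR8 (squares), as the mean and SD of 3 libraries. Hnrnpa1 is at the top and Ptbp2 at the bottom for NIH/3T3, and 28 of the 40 genes were called higher in CGR8.

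After 1 h no gene of the 40 passed the test in either line, against 0.732% of 13941 genes in NIH/3T3 (0.653% higher and 0.0789% lower) and 0.270% of 15933 genes in CGR8 (0.144% and 0.126%). At an unadjusted p under 0.05, 12 genes passed in NIH/3T3 and 0 in CGR8. DESeq2 called 1 and 0 of the 40, and limma's voom with quality weights 13 and 2. Without NIH/3T3 1 h C and 2 h A, 9 genes passed in NIH/3T3 at 1 h, 8 higher (Srsf1, Srsf7, Srsf10, Srsf11, Ptbp2, Ptbp3, Rbm39 and Clk1) and Hnrnpab lower. The share of all genes called in that fit is not given here, so this count has no background beside it. With any single library left out the count at 1 h stayed at 0 in both lines. The library NIH/3T3 1 h C was high for Srsf3, at 624 CPM against 401 and 417 CPM in its replicates, and for Rbm3, at 315 CPM against 157 and 177 CPM. The tests of whether the 1 h change differed between the lines called 0 of 40 genes by edgeR, 0 by DESeq2 and 0 by voom. Over all 17549 genes edgeR called 0.160%, 0.0171% higher and 0.142% lower. At an unadjusted p under 0.05, 1 of 40 and 710 of 17549 genes passed by edgeR.

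By 2 h, 12 genes had risen and 9 had fallen in NIH/3T3, where 35.0% of all genes tested were called (16.1% higher and 18.9% lower). In CGR8 6 had risen and 4 had fallen, where 19.9% were called (8.97% higher, the others lower). All 6 genes that rose in CGR8 (Srsf3, Srsf7, Tra2a, Hnrnpc, Hnrnpdl and Rbm3) were among the 12 of NIH/3T3. All 4 that fell (Hnrnpu, Hnrnpul1, Hnrnpul2 and Ptbp1) were among its 9. The overlap over all genes was not computed. The further genes that rose in NIH/3T3 were Srsf1 (0.22), Srsf6 (0.31), Srsf10 (0.32), Srsf11 (0.25), Tra2b (0.40) and Hnrnpk (0.28), given as log2 fold changes, and those that fell were Hnrnpa3 (-0.23), Hnrnpd (-0.45), Hnrnph3 (-0.33), Hnrnpm (-0.38) and Rbm25 (-0.54). With scaling by library size alone the NIH/3T3 counts were 9 and 11. Without NIH/3T3 2 h A and 1 h C they were 18 and 13, and without CGR8 0 h B the CGR8 counts were 5 and 3. The shares of all genes called in these fits are not given here. The CGR8 count of 10 called genes was 5 without CGR8 0 h A and 4 without CGR8 2 h C. No difference between the lines in the 2 h change passed for any of the 40 genes by edgeR. The background was 2.02% of all genes, 0.866% higher and 1.16% lower. At an unadjusted p under 0.05, 3 of 40 and 1766 of 17549 genes passed by edgeR. DESeq2 called 1 and voom 0.

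At 5 h, 16 genes were higher and 13 lower than at 0 h in NIH/3T3, and 13 were higher and 9 lower in CGR8. The background was close to these shares or below them: 51.0% of all genes were called in NIH/3T3 (24.0% higher and 27.1% lower), against 72.5% of the 40, and 52.1% in CGR8 (24.9% and 27.2%), against 55.0%. The median log2 fold change of the 40 genes was 0.14 in NIH/3T3 and 0.08 in CGR8, and that of all genes was -0.01 in both. In CGR8, scaling by library size alone moved the median of all genes to -0.12 and gave 10 higher and 10 lower, and without CGR8 0 h B the counts were 12 and 7. By class, among the 10 SR genes 5 rose and 1 fell in each line, both TRA2 genes rose in both lines, and of the 12 hnRNP genes outside the A/B and D families 7 fell and 2 rose in NIH/3T3 and 5 fell and 3 rose in CGR8.

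**Figure D2:**
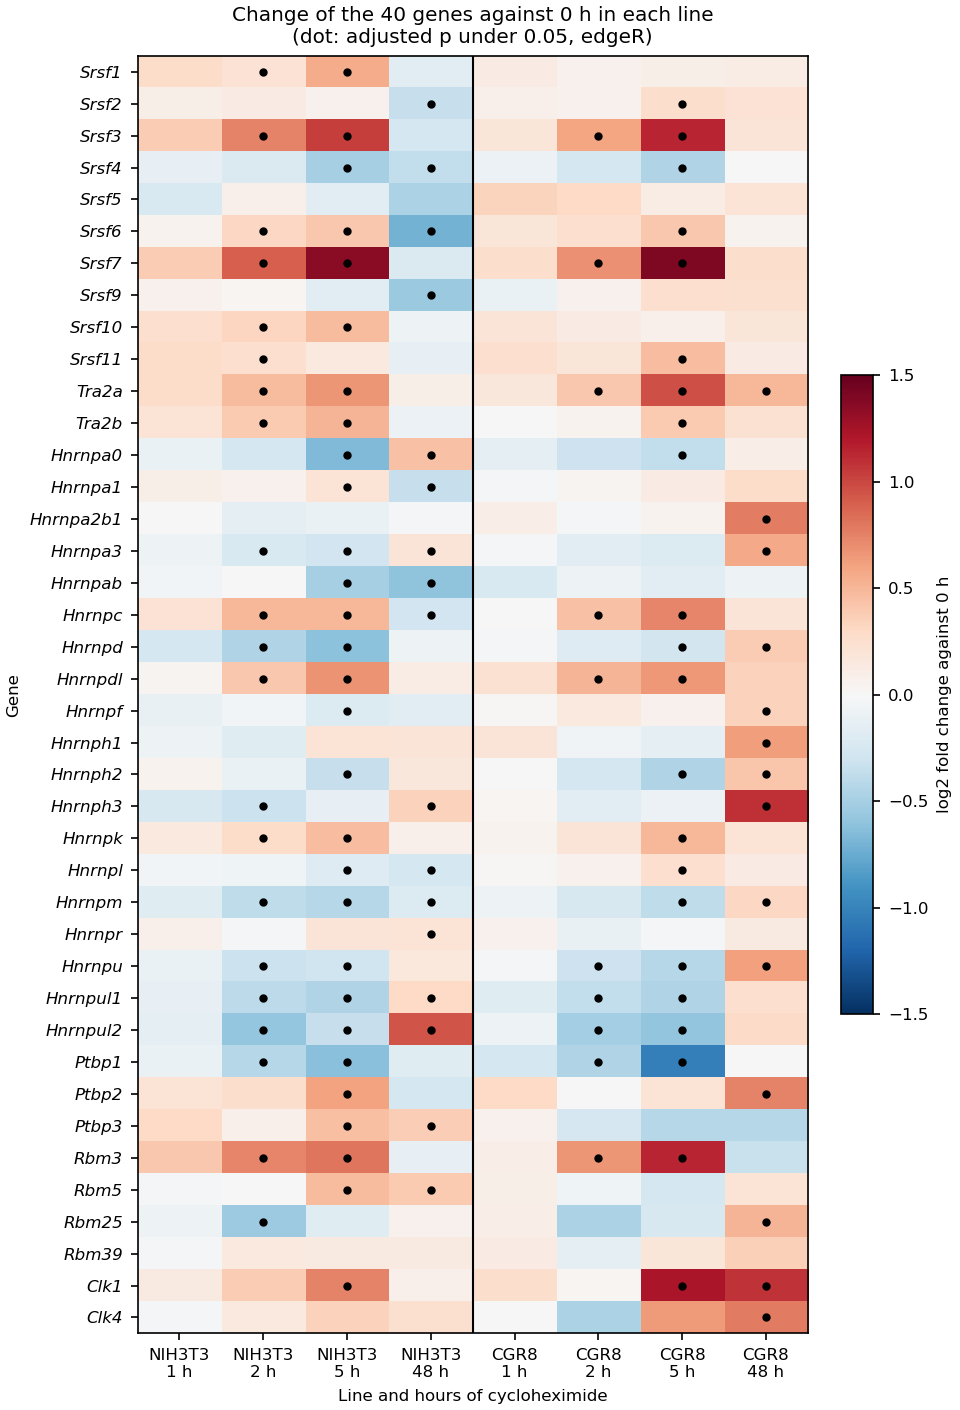
Log2 fold change of each of the 40 genes (rows) against 0 h at 1, 2, 5 and 48 h in NIH/3T3 and CGR8 (columns), from blue (lower) to red (higher), with a dot where edgeR's adjusted p was under 0.05. Srsf3, Srsf7 and Rbm3 are red with a dot at 2 and 5 h in both lines, and the 1 h columns hold no dot.

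Srsf7, an SR protein that also takes part in mRNA export, rose more than any other of the 40 genes at 5 h in both lines. In NIH/3T3 its libraries held 225, 238 and 232 CPM at 0 h, 373, 455 and 461 CPM at 2 h, 587, 627 and 556 CPM at 5 h and 199, 201 and 199 CPM at 48 h. All libraries at 2 and 5 h were above those at 0 h, and those at 48 h lay just below them. The 5 h libraries gave a log2 fold change of 1.35 (SE 0.11, adjusted p = 1.75e-07), and the 2 h libraries 0.89 (SE 0.11, adjusted p = 2.83e-05). CGR8 libraries held 362, 357 and 366 CPM at 0 h, 469.8, 541 and 732 CPM at 2 h, 968, 1004 and 900.1 CPM at 5 h and 416, 438 and 451 CPM at 48 h. The 5 h libraries were above every other library of the line, with a log2 fold change of 1.40 (SE 0.13, adjusted p = 1.18e-06), and the 2 h change was 0.68 (SE 0.13, adjusted p = 0.00257).

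Srsf3, the smallest SR protein and a regulator of export and polyadenylation as well as splicing, followed the same course. NIH/3T3 libraries held 362, 376 and 366 CPM at 0 h, 590.3, 609.96 and 651 CPM at 2 h, 763, 759 and 743 CPM at 5 h and 297, 309 and 317 CPM at 48 h. In CGR8 the values were 520.3, 629 and 564 CPM, 889, 766 and 930.4 CPM, 1246, 1377 and 1162 CPM and 616, 663 and 687 CPM at the same times. In both lines the 0 h and 5 h libraries did not overlap, nor did those at 0 h and 2 h. The change at 5 h was 1.04 (SE 0.13, adjusted p = 6.84e-06) in NIH/3T3 and 1.14 (SE 0.11, adjusted p = 1.76e-06) in CGR8, on the log2 scale, after 0.75 (SE 0.12, adjusted p = 0.000475) and 0.59 (SE 0.11, adjusted p = 0.00246) at 2 h.

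Other SR genes moved less. The log2 fold change of Srsf6 at 5 h was 0.40 in NIH/3T3 and 0.40 in CGR8, called in both. Srsf1, the founding member of the family, and Srsf10 passed in NIH/3T3 (0.56 and 0.47), with 0.09 and 0.08 in CGR8, and neither difference between the lines passed (adjusted p = 0.0522 and 0.133). Srsf2 and Srsf11 passed in CGR8 (0.27 and 0.46), with 0.06 and 0.15 in NIH/3T3, and here too the difference did not pass. Srsf4 was the SR gene that fell. It stood at 26.6, 30.2 and 30.2 CPM at 0 h and 21.01, 19.9 and 22.6 CPM at 5 h in CGR8, without overlap, with a log2 fold change of -0.45 (SE 0.10, adjusted p = 0.00114). It stood at 15.5, 18.7 and 17.1 CPM and 11.9, 12.4 and 11.9 CPM in NIH/3T3 (log2 change -0.50, SE 0.11, adjusted p = 0.00151). Srsf5 and Srsf9 did not pass at 5 h in either line, and Srsf5 passed against 0 h at no time with all libraries kept. In NIH/3T3 the library 2 h A was low for Srsf5, at 125 CPM against 244 and 268 CPM in its replicates.

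Tra2a and Tra2b, the mammalian counterparts of the fly sex-determination gene transformer-2, rose in both lines at 5 h. Tra2a went from 152, 162 and 149 CPM to 226, 261 and 245 CPM in NIH/3T3 and from 166, 176 and 179 CPM to 333, 346 and 342 CPM in CGR8, where every 5 h library exceeded every library at the other times. Its log2 fold changes were 0.66 (SE 0.11, adjusted p = 0.000103) and 0.97 (SE 0.11, adjusted p = 4.32e-06). Those of Tra2b were smaller, at 0.51 (SE 0.08, adjusted p = 4.39e-05) and 0.39 (SE 0.08, adjusted p = 0.00115).

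Among the hnRNP A/B and D genes, which include shuttling repressors and AU-rich element binders, 4 of 7 fell and 2 rose in NIH/3T3 at 5 h, and 2 fell and 1 rose in CGR8. Hnrnpa0 fell from 190.2, 189 and 206 CPM to 123, 122 and 125 CPM in NIH/3T3, and its libraries at 48 h, at 248, 263 and 280.4 CPM, lay above both. The changes against 0 h were -0.67 (SE 0.10, adjusted p = 5.78e-05) at 5 h and 0.43 (SE 0.10, adjusted p = 0.00186) at 48 h. Hnrnpd stood at 230.3, 189 and 199.98 CPM at 0 h, 146, 149 and 159.8 CPM at 2 h and 137, 132 and 136 CPM at 5 h in NIH/3T3, with no overlap between the 0 h libraries and those at 2 or 5 h. Its changes were -0.45 (SE 0.09, adjusted p = 0.00184) at 2 h and -0.61 (SE 0.09, adjusted p = 4.82e-05) at 5 h. In CGR8 both genes fell at 5 h, with -0.37 for Hnrnpa0 and -0.28 for Hnrnpd. Hnrnpdl, a close relative of Hnrnpd, moved the opposite way, with 0.68 (SE 0.12, adjusted p = 0.000155) in NIH/3T3 and 0.65 (SE 0.14, adjusted p = 0.00117) in CGR8. The remaining members changed less at 5 h: Hnrnpab (-0.50), Hnrnpa3 (-0.29) and Hnrnpa1 (0.21) passed in NIH/3T3, and none of them in CGR8, while Hnrnpa2b1 passed in neither line.

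Of the other hnRNP genes, Hnrnpc, a binder of uridine tracts, and Hnrnpk, a binder of cytidine-rich RNA, rose in both lines. Hnrnpc changed by 0.49 in NIH/3T3 and 0.73 in CGR8, and Hnrnpk by 0.47 and 0.50 (log2, all called). Falls in both lines were called for Hnrnpu, a nuclear matrix protein, its relatives Hnrnpul1 and Hnrnpul2, Hnrnpm and Hnrnph2, from -0.30 to -0.45 in NIH/3T3 and from -0.38 to -0.59 in CGR8. Hnrnpul2 had the largest fall of the 5 in CGR8, from 255, 238 and 266 CPM at 0 h to 169, 208 and 154 CPM at 2 h and 161, 165 and 178 CPM at 5 h, without overlap with 0 h. These were changes of -0.51 (SE 0.11, adjusted p = 0.00459) and -0.59 (SE 0.11, adjusted p = 0.000308). In NIH/3T3 Hnrnpul2 was at 114, 104 and 114 CPM at 0 h and 73.4, 71.4 and 76.7 CPM at 2 h (log2 change -0.58, SE 0.09, adjusted p = 0.000369). Hnrnpul1 fell at 2 h in CGR8 from 217, 242 and 224 CPM to 191, 193 and 146 CPM (log2 change -0.37, SE 0.11, adjusted p = 0.0295), and this call was lost without CGR8 0 h A, B or C or 2 h C (adjusted p = 0.0611, 0.0728, 0.0729 and 0.144). Hnrnph1, Hnrnph3 and Hnrnpr passed at 5 h in neither line, and Hnrnpf passed in NIH/3T3 (-0.20).

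Ptbp1, the polypyrimidine-tract-binding protein, fell in both lines. CGR8 libraries held 810.1, 919 and 759 CPM at 0 h, 717, 617 and 491 CPM at 2 h, 369.9, 451 and 399.6 CPM at 5 h and 776, 855 and 864 CPM at 48 h. The 5 h libraries were the lowest of the line and those of 48 h overlapped with 0 h. In NIH/3T3 they held 497, 466 and 512 CPM at 0 h and 310.2, 323 and 323 CPM at 5 h. The 5 h change was -1.03 (SE 0.13, adjusted p = 1.49e-05) in CGR8, the largest called fall of the 40 genes, and -0.62 (SE 0.10, adjusted p = 0.000118) in NIH/3T3. The 2 h call in CGR8 (log2 change -0.45, SE 0.13, adjusted p = 0.0255) was lost without CGR8 0 h A, 0 h B or 2 h C (adjusted p = 0.0651, 0.0733 and 0.135). Its paralogs rose in NIH/3T3, Ptbp2 by 0.60 (SE 0.20, adjusted p = 0.022) and Ptbp3 by 0.46 (SE 0.12, adjusted p = 0.00398), and neither passed in CGR8, with 0.20 (SE 0.19, adjusted p = 0.385) and -0.43 (SE 0.19, adjusted p = 0.0701).

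Rbm3, a cold-inducible RNA-binding protein, was higher at 2 and 5 h in both lines. NIH/3T3 libraries held 151, 171 and 167 CPM at 0 h, 294, 268 and 254 CPM at 2 h, 303, 273 and 278 CPM at 5 h and 156, 146 and 148 CPM at 48 h. CGR8 libraries held 193, 216 and 203 CPM, 319.6, 282 and 366 CPM, 436, 532 and 387 CPM and 145, 174 and 166 CPM. In both lines the 2 h and 5 h libraries were above all 0 h libraries, and in CGR8 the 48 h libraries were below them. The changes were 0.74 (SE 0.18, adjusted p = 0.00529) at 2 h and 0.80 (SE 0.18, adjusted p = 0.00127) at 5 h in NIH/3T3, and 0.66 (SE 0.13, adjusted p = 0.00346) and 1.15 (SE 0.13, adjusted p = 6.48e-06) in CGR8. Rbm25 fell in NIH/3T3 at 2 h, from 114, 106 and 92.2 CPM to 63.5, 77.5 and 73.6 CPM (log2 change -0.54, SE 0.14, adjusted p = 0.00725), and not by call at 5 h (-0.19). Rbm5 passed in NIH/3T3 at 5 h (log2 change 0.48, SE 0.14, adjusted p = 0.00928) and not in CGR8 (log2 change -0.26, SE 0.16, adjusted p = 0.174). With all libraries kept, Rbm39, which is related to the splicing factor U2AF, passed against 0 h at no time in either line. Without NIH/3T3 1 h C and 2 h A it passed at 1 h in NIH/3T3, as given above. Its NIH/3T3 libraries held 257, 258 and 242 CPM at 0 h and 177, 337 and 326 CPM at 2 h, with replicate A low.

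Single libraries of the kinases stood away from their replicates. Clk1 libraries of NIH/3T3 held 53.4, 60.8 and 50.9 CPM at 0 h, 67.5, 65.99 and 47.7 CPM at 1 h, 29.7, 92.7 and 91.4 CPM at 2 h, 89.5, 93.4 and 92.5 CPM at 5 h and 59.5, 55.6 and 58.9 CPM at 48 h. At 2 h replicate A was low and the others high, and the change did not pass (log2 change 0.38, SE 0.27, adjusted p = 0.284), whereas without that library it was 0.76 (adjusted p = 0.000173). At 5 h all libraries lay above 0 h, with 0.74 (SE 0.27, adjusted p = 0.0299) as the log2 fold change. That call was lost without NIH/3T3 0 h A or C or 5 h A, B or C (adjusted p = 0.0795, 0.085, 0.0532, 0.0693 and 0.0629), with the log2 fold change between 0.70 and 0.81 whichever library was left out. In CGR8 Clk1 stood at 63.6, 35.2 and 63.2 CPM at 0 h, 62.5, 67.8 and 64.9 CPM at 1 h, 28.4, 67.6 and 69.6 CPM at 2 h, 137, 96.4 and 146 CPM at 5 h and 115, 112 and 118 CPM at 48 h. Both 0 h B and 2 h A were low within their groups, and all 5 h and 48 h libraries exceeded all 0 h libraries. The rise was 1.23 (SE 0.27, adjusted p = 0.00136) at 5 h and 1.09 (SE 0.27, adjusted p = 0.0068) at 48 h, and without CGR8 0 h B it was 1.01 (adjusted p = 0.00533) and 0.86 (adjusted p = 0.0295).

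Clk4, the paralog of Clk1, was at 25.4, 24.2 and 25.1 CPM at 0 h, 25.7, 28.6 and 19.6 CPM at 1 h, 18.5, 30.7 and 32.9 CPM at 2 h, 32.6, 31.8 and 30.4 CPM at 5 h and 29.9, 28.3 and 29.96 CPM at 48 h in NIH/3T3, and it passed at no time against 0 h. Here again the library 2 h A was low, and without it the 2 h change of 0.14 was 0.37 (adjusted p = 0.0182). CGR8 libraries held 20.6, 13.1 and 21.8 CPM at 0 h, 15.6, 19.8 and 20.4 CPM at 1 h, 6.97, 17.9 and 15.1 CPM at 2 h, 31.9, 20.8 and 33.5 CPM at 5 h and 30.7, 33.9 and 30.7 CPM at 48 h. The 48 h libraries lay above the 0 h libraries (log2 change 0.78, SE 0.27, adjusted p = 0.0393), and the 5 h change did not pass (log2 change 0.63, SE 0.27, adjusted p = 0.0569). The 48 h call was lost without CGR8 0 h A or B or 48 h A, B or C (adjusted p = 0.0603, 0.141, 0.0727, 0.104 and 0.0783), and without CGR8 5 h B the 5 h change passed (0.82, adjusted p = 0.024).

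**Figure D3:**
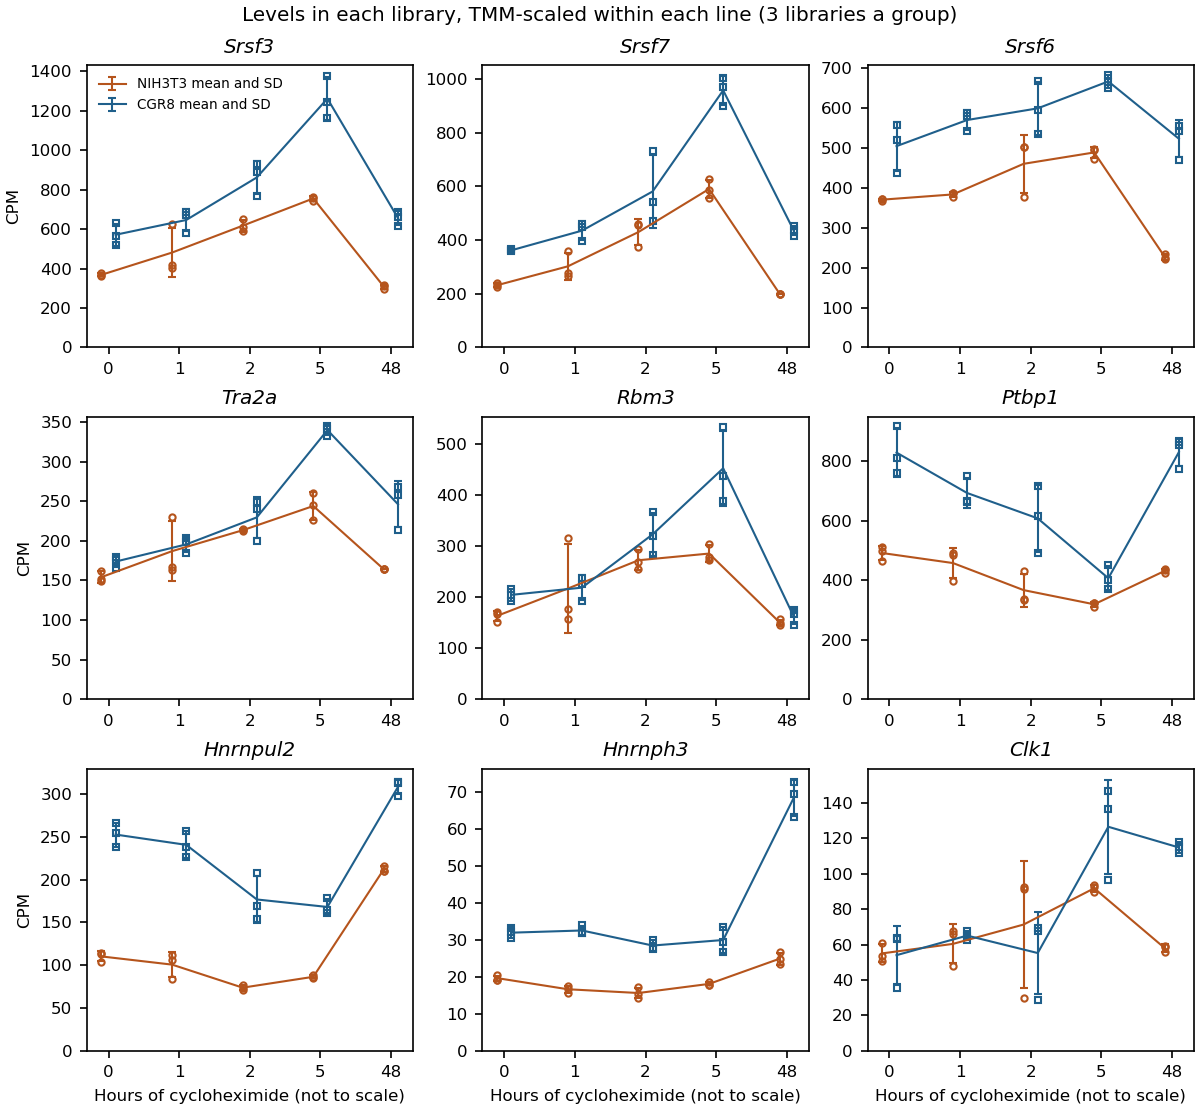
Levels of 9 genes in CPM, scaled within each line, at 0, 1, 2, 5 and 48 h of cycloheximide (time axis not to scale) in NIH/3T3 (circles) and CGR8 (squares), with each library as an open symbol and the line joining group means with SD (n = 3). The means of Srsf3, Srsf7, Tra2a and Rbm3 are highest at 5 h in both lines, that of Ptbp1 is lowest at 5 h, and Hnrnph3 is highest at 48 h in CGR8.

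The lines, whose libraries are separate, were compared gene by gene at 5 h. The overlap of calls between the lines over all genes was not computed at any time. The shares of overlap given here therefore have no background beside them. Of the 16 genes that rose in NIH/3T3, 10 (62.5%) also rose in CGR8, which is 76.9% of the 13 there: Srsf3, Srsf6, Srsf7, Tra2a, Tra2b, Hnrnpc, Hnrnpdl, Hnrnpk, Rbm3 and Clk1. Of the 13 that fell in NIH/3T3, 9 (69.2%) fell in CGR8, where they were all that fell: Srsf4, Hnrnpa0, Hnrnpd, Hnrnph2, Hnrnpm, Hnrnpu, Hnrnpul1, Hnrnpul2 and Ptbp1. Hnrnpl, a binder of CA repeats, was the gene called in opposite directions. It stood at 380.2, 364 and 397 CPM at 0 h and 334, 339 and 327 CPM at 5 h in NIH/3T3, and at 799, 800.4 and 809 CPM and 1022, 926 and 914 CPM in CGR8, with no overlap in either line. The changes were -0.19 (SE 0.07, adjusted p = 0.0352) and 0.25 (SE 0.09, adjusted p = 0.0323). Each kept its sign under every setting tried, but the calls were not stable. The fall in NIH/3T3 was not called with RLE scaling (adjusted p = 0.0631), with no filter (0.254), or without 0 h A or C or 5 h A, B or C (0.0707 to 0.17). The rise in CGR8 was not called with library size alone (log2 fold change of 0.14, adjusted p = 0.181), with no filter (0.252), with the compared groups alone (0.0933), or without 0 h A, B or C or 5 h A (0.054 to 0.0858).

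The difference between the lines in the 5 h change (CGR8 minus NIH/3T3, log2) was called for 6 of 40 genes, 4 higher in CGR8 and 2 lower, against 13.3% of all genes, 8.18% higher and 5.09% lower. It was 0.53 (SE 0.11, adjusted p = 0.00133) for Hnrnpl, 0.51 for Srsf9, 0.42 for Hnrnpd, 0.35 for Hnrnpf, -0.65 for Rbm5, a regulator of exon skipping in apoptosis genes, and -0.80 (SE 0.23, adjusted p = 0.02) for Ptbp3. Ptbp3 had 179.6, 214 and 155 CPM at 0 h and 244, 250.2 and 258 CPM at 5 h in NIH/3T3, and 134, 111 and 124 CPM and 57.5, 97.9 and 117 CPM in CGR8. The NIH/3T3 libraries at 5 h were all above 0 h, while in CGR8 1 library of 5 h lay inside the range of 0 h. These calls moved with the scaling and with single libraries. The median difference over all genes was 0.13, and it was 0.05 with RLE scaling and -0.06 with library size alone, which gave 1 higher and 3 lower and 1 higher and 5 lower. The count of called genes was 1 without NIH/3T3 0 h C or CGR8 0 h A, 2 without NIH/3T3 5 h B or 5 h C, 3 without NIH/3T3 5 h A, CGR8 0 h C or CGR8 5 h A, and 6 without CGR8 5 h B, of which 1 was higher and 5 lower. It was 13 (9 higher and 4 lower) without the 3 libraries that stood apart. Without CGR8 5 h A the difference of Hnrnpl was 0.29 (adjusted p = 0.103) and that of Srsf9 0.21 (adjusted p = 0.515). That of Hnrnpd was 0.24 (adjusted p = 0.38) and that of Hnrnpf 0.17 (adjusted p = 0.421). The call of Ptbp3 was lost without NIH/3T3 0 h C or CGR8 0 h A (adjusted p = 0.0765 and 0.0575). That of Rbm5 was lost without any single NIH/3T3 library of 0 h or 5 h, and without CGR8 0 h A or C (adjusted p from 0.0765 to 0.12). It was also lost with a replicate block by letter (adjusted p = 0.0564).

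**Figure D4:**
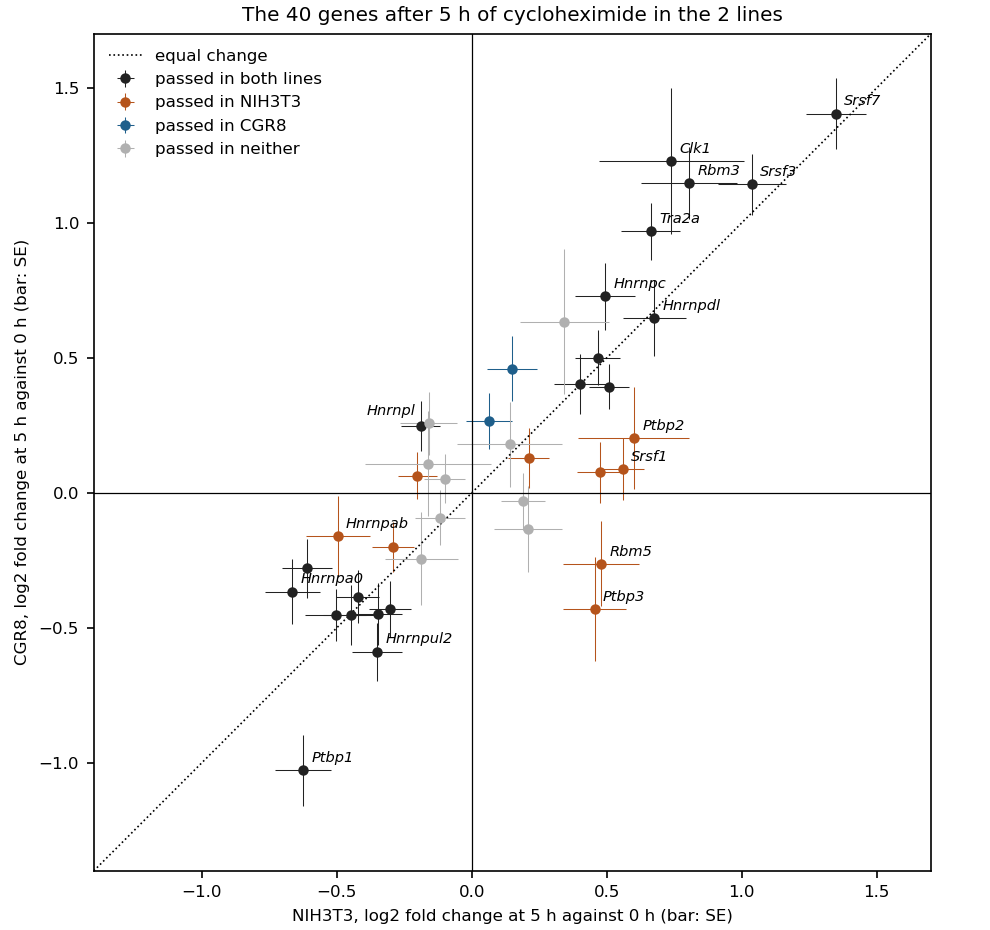
Log2 fold change at 5 h against 0 h in NIH/3T3 (horizontal) and CGR8 (vertical) for the 40 genes, with SE bars, coloured by the line in which each passed the test, and a dotted line of equal change. The 10 genes that rose in both lines are at the upper right with Srsf7 outermost, the 9 that fell in both are at the lower left with Ptbp1 outermost, and Hnrnpl lies in the upper left.

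The 10 genes with an annotated frame-ending exon were then set beside the other 30. At 5 h in NIH/3T3, 5 of the 10 rose, 1 fell and the median log2 fold change was 0.33, while of the other 30 genes 11 rose and 12 fell, with a median of -0.02. In CGR8, 7 of the 10 rose and 0 fell, with a median of 0.43, and of the other 30 genes 6 rose and 9 fell, with a median of -0.06. The 5 that rose in NIH/3T3 were Srsf3, Srsf7, Tra2a, Tra2b and Rbm3, and in CGR8 Srsf11 and Hnrnpl rose with them. Over all coding genes tested, the share that rose was nearly the same with and without such an exon: 25.1% of 769 genes against 23.9% of the others in NIH/3T3, and 23.5% of 827 genes against 23.8% in CGR8. With an annotated NMD transcript of any kind, 14 of 29 genes of the list rose and 5 fell in NIH/3T3 and 12 rose and 4 fell in CGR8. Without one, 2 of 11 rose and 8 fell in NIH/3T3, and 1 of 11 rose and 5 fell in CGR8. Over all coding genes tested these shares lay close together: 23.1% of genes with an annotated NMD transcript rose, against 24.3% of those without, in NIH/3T3, and 22.3% against 24.4% in CGR8, while 31.6% against 31.1% and 32.5% against 31.5% fell. Whether these classes differ was not tested, because the list was drawn up as one in which many genes carry poison exons or retained introns.

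No untreated library was taken at 48 h. Cycloheximide and 48 h of culture therefore cannot be told apart in any comparison that uses the 48 h libraries. At 48 h, in NIH/3T3, 8 of 40 genes were higher and 9 lower than at 0 h. This is a smaller share (42.5%) than the 52.3% of all genes called (26.7% higher and 25.6% lower). In CGR8, 14 were higher and 0 lower, against 12.2% of all genes called higher, 15.6% lower and 27.8% in either direction. The median log2 fold change there was 0.25, against -0.0027 over all genes. The CGR8 count of 14 was 10 without CGR8 0 h B, and 9 without CGR8 48 h B or 48 h C. The NIH/3T3 count of 17 was 11 or 12 whichever single library of 0 h or 48 h was left out, and scaling by library size alone gave 10 higher and 7 lower there. The 40 genes took 2.08% of counts at 48 h in CGR8, against 1.71% at 0 h, and 1.11% and 1.10% in NIH/3T3. Hnrnpa3 and Hnrnph3 were higher in both lines, which is 25.0% of the 8 in NIH/3T3 and 14.3% of the 14 in CGR8, and Hnrnpm was called lower in NIH/3T3 (-0.20) and higher in CGR8 (0.31).

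In NIH/3T3 at 48 h, 4 of 10 SR genes were lower and none was called higher. Srsf6 went from 372, 372 and 368 CPM at 0 h and 498, 496 and 474 CPM at 5 h to 222, 224 and 235 CPM at 48 h, below every other library of the line. Against 0 h this was -0.71 (SE 0.10, adjusted p = 1.6e-05). Srsf9 went from 76.9, 72.1 and 83.2 CPM to 50.7, 53.5 and 53.5 CPM (log2 change -0.56, SE 0.11, adjusted p = 0.000394), and Srsf2 and Srsf4 changed by -0.35 and -0.37. Hnrnpab, which also acts in RNA transport, was lower as well, at 428, 407 and 421 CPM at 0 h and 265, 272 and 288 CPM at 48 h (log2 change -0.61, SE 0.12, adjusted p = 0.000496). The largest rise was that of Hnrnpul2, from 114, 104 and 114 CPM to 210.3, 211 and 216 CPM (log2 change 0.94, SE 0.09, adjusted p = 6.37e-07). Rbm5 rose from 68.5, 71.8 and 72.5 CPM to 95.7, 91.1 and 93.5 CPM without overlap (log2 change 0.40, SE 0.14, adjusted p = 0.0253), and its call was lost without NIH/3T3 0 h A or B or 48 h A or C (adjusted p = 0.0773, 0.056, 0.0695 and 0.0571).

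In CGR8 the 14 genes that rose at 48 h included 9 hnRNP genes, and none of the 10 SR genes passed. Hnrnph3, a member of the hnRNP H family that binds runs of guanosine, stood at 32.1, 30.5 and 33.4 CPM at 0 h, 33.6, 26.8 and 29.6 CPM at 5 h and 63.2, 72.9 and 69.4 CPM at 48 h. All 48 h libraries lay above all others of the line, with a log2 fold change of 1.10 (SE 0.10, adjusted p = 1.9e-06). Its close relatives had smaller rises: Hnrnph1 (0.63), Hnrnph2 (0.41) and Hnrnpf (0.34). The further genes that rose were Hnrnpa2b1 (0.76), Ptbp2 (0.74), Hnrnpu (0.61), Hnrnpa3 (0.57), Rbm25 (0.51), Tra2a (0.50), Hnrnpd (0.39) and Hnrnpm (0.31) and the kinases Clk1 and Clk4 described above.

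The 48 h libraries were also compared with those of 5 h, which the comparisons of 5 h with 0 h share, so the values are given side by side and no relation between them is drawn. In NIH/3T3, 17 genes were lower and 10 higher at 48 h than at 5 h, against 65.6% of all genes called (31.4% lower and 34.1% higher). In CGR8 8 were lower and 17 higher, against 57.5% called, 28.6% lower and 28.9% higher (5 and 18 with library size alone). Srsf7 was lower at 48 h than at 5 h by log2 changes of -1.56 (SE 0.11, adjusted p = 9.61e-09) in NIH/3T3 and -1.14 (SE 0.13, adjusted p = 3.62e-06) in CGR8, and against 0 h its 48 h changes were -0.22 and 0.27, neither called. Srsf3 changed by -1.30 and -0.94, with -0.26 and 0.20 against 0 h, also not called. Rbm3 gave -0.92 and -1.48, the latter the largest such change in CGR8 among the 40 genes, with -0.12 and -0.34 against 0 h, not called. Ptbp1 was higher at 48 h than at 5 h by 0.44 and 1.03. Clk1 was lower at 48 h than at 5 h in NIH/3T3 (log2 change -0.66, SE 0.27, adjusted p = 0.0388) but not by call in CGR8 (log2 change -0.14, SE 0.27, adjusted p = 0.67).

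The change at 48 h differed between the lines for 17 of 40 genes, with the log2 change higher in CGR8 in 15 and lower in 2. The background was 21.9% of all genes called, 9.78% higher and 12.1% lower. The median difference was 0.41 over the 40 genes and -0.03 over all genes. With library size alone the counts were 10 and 3 and the median over all genes was -0.11, and without the libraries that stood apart they were 21 and 2. Ptbp2 showed the largest called difference, 0.98 (SE 0.30, adjusted p = 0.0169), which was 0.89 and not called with library size alone (adjusted p = 0.0565). Its libraries held 31.8, 33.05 and 27.9 CPM at 0 h and 26.2, 25.3 and 26.1 CPM at 48 h in NIH/3T3, lower at 48 h in every library though not called (-0.26), and 34.2, 23.7 and 31.7 CPM and 50.02, 45.9 and 53.8 CPM in CGR8, all higher. Its paralog Ptbp3 showed the largest difference in the other direction, -0.82 (SE 0.23, adjusted p = 0.0101), with 228, 249 and 232 CPM at 48 h in NIH/3T3 and 98.9, 74.9 and 99.5 CPM in CGR8. Hnrnpul2 also differed downward (-0.67).

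The other genes with a larger 48 h change in CGR8 were Srsf9 (0.79), Hnrnpa2b1 (0.77), Srsf6 (0.74), Hnrnph3 (0.74), Hnrnpa1 (0.60), Srsf2 (0.55), Hnrnpm (0.50), Hnrnpf (0.48), Hnrnpc (0.47), Hnrnpu (0.44), Hnrnpd (0.44), Hnrnpl (0.37), Hnrnpa3 (0.36) and Tra2b (0.30), given as log2 differences. For Srsf6 and Srsf9 these went with a fall in NIH/3T3 (-0.71 and -0.56) and no call in CGR8 (0.05 and 0.24), and for Hnrnpa2b1 and Hnrnph3 with a rise in CGR8 (0.76 and 1.10). The call of Hnrnpc was lost when any of 10 of the 12 libraries compared was left out, that is all but CGR8 0 h B and CGR8 48 h A (adjusted p from 0.0584 to 0.137). That of Tra2b was lost without NIH/3T3 0 h B, 48 h A or 48 h B or CGR8 0 h A, 0 h C, 48 h B or 48 h C (up to 0.109). That of Hnrnpd was lost without NIH/3T3 0 h A or CGR8 0 h A or 48 h B (up to 0.073). That of Hnrnpa3 was lost without CGR8 0 h A (0.0531) and that of Hnrnpl without CGR8 48 h B (0.0539).

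**Figure D5:**
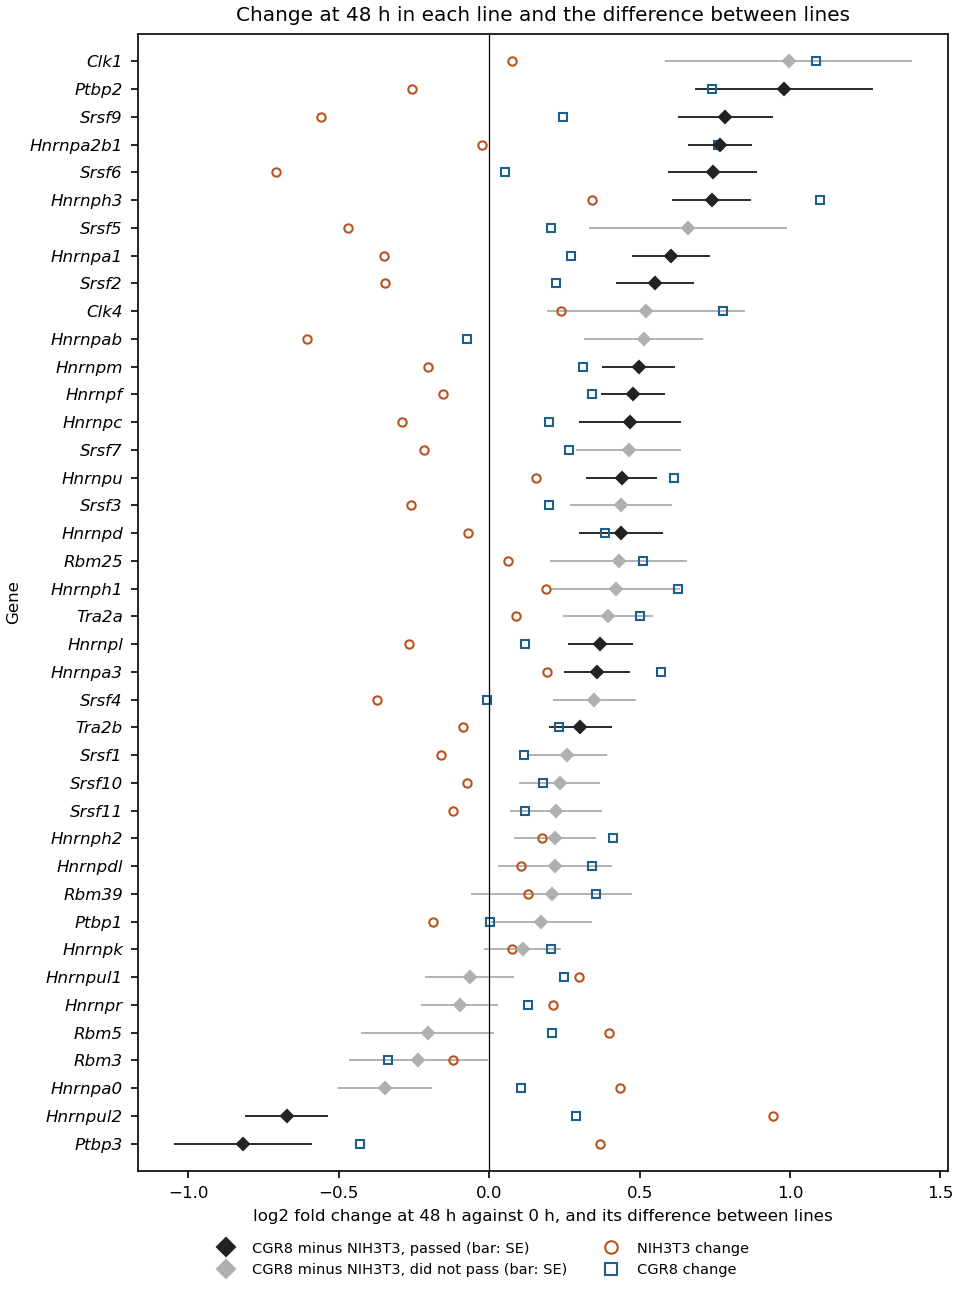
Change of each of the 40 genes at 48 h against 0 h in NIH/3T3 (circles) and CGR8 (squares), and the difference between the lines from the model of all 30 libraries (diamonds with SE, dark where the adjusted p was under 0.05), on the log2 scale. Of the 17 dark diamonds 15 lie above 0 and 2 lie below it, those of Hnrnpul2 and Ptbp3.

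Other genes of splicing and NMD were read from lists fixed for this work. Over all genes tested, 24.0% were called higher and 27.1% lower in NIH/3T3 at 5 h, 24.9% and 27.2% in CGR8 at 5 h, 26.7% and 25.6% in NIH/3T3 at 48 h, and 12.2% and 15.6% in CGR8 at 48 h. Among 45 genes of the core spliceosome, the snRNP proteins and factors that carry out the splicing reaction, 12 rose and 16 fell in NIH/3T3 at 5 h, the former near the share of all genes, and 18 rose and 12 fell in CGR8. The medians at 5 h were -0.04 and 0.17, against -0.01 over all genes in both lines. At 48 h, 4 rose and 26 fell in NIH/3T3, with a median log2 fold change of -0.37, while in CGR8 7 rose and 0 fell. Snrpd1, a core Sm protein, was among the largest rises in both lines. It went from 169 ± 5.71 CPM at 0 h to 294 ± 10.6 CPM at 5 h (log2 fold change 0.80, adjusted p = 0.000103) in NIH/3T3. In CGR8 it went from 152 ± 10.9 CPM at 0 h to 382 ± 56.5 CPM at 5 h (log2 fold change 1.33, adjusted p = 1.54e-06). The largest called falls at 5 h were those of Sf3a2 (-0.92) and Snrnp70 (-0.74) in NIH/3T3 and of Sf1 (-0.93) and Aqr (-0.86) in CGR8. Of 7 other splicing kinases, Srpk2, an SR protein kinase, fell in both lines, from 39.5 ± 2.91 CPM at 0 h to 22.7 ± 0.304 CPM at 5 h (log2 fold change -0.80, adjusted p = 4.78e-06) in NIH/3T3 and from 54.8 ± 6.68 CPM at 0 h to 21.1 ± 2.74 CPM at 5 h (log2 fold change -1.38, adjusted p = 1.18e-06) in CGR8. Prpf4b rose in NIH/3T3 and Dyrk1b fell in CGR8, and the other calls in this list at 5 h were 0. Among 49 other splicing regulators tested in NIH/3T3, 12 rose and 13 fell, and among 50 in CGR8, 10 rose and 14 fell, which is close to the shares of all genes. Cirbp, the cold-inducible relative of Rbm3, rose from 14.5 ± 1.18 CPM at 0 h to 30.5 ± 2.43 CPM at 5 h (log2 fold change 1.07, adjusted p = 3.57e-05) in NIH/3T3 and from 30.1 ± 5.59 CPM at 0 h to 50.7 ± 5.48 CPM at 5 h (log2 fold change 0.75, adjusted p = 0.000708) in CGR8, and Khsrp, a KH-domain binding protein, fell from 134 ± 10.6 CPM at 0 h to 74.3 ± 1.14 CPM at 5 h (log2 fold change -0.86, adjusted p = 2.02e-05) and from 226 ± 11.9 CPM at 0 h to 103 ± 6.05 CPM at 5 h (log2 fold change -1.13, adjusted p = 8.41e-07). Of 10 NMD factors, 0 rose and 5 fell in NIH/3T3 at 5 h and 0 rose and 3 fell in CGR8, the latter about the share of all genes that fell. Upf3a fell in both, from 29.3 ± 2.25 CPM at 0 h to 15.7 ± 2.20 CPM at 5 h (log2 fold change -0.90, adjusted p = 3.28e-05) and from 69.9 ± 3.36 CPM at 0 h to 44.8 ± 8.04 CPM at 5 h (log2 fold change -0.64, adjusted p = 0.00166).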

How the data were processed

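Polyadenylated RNA of 30 libraries was sequenced with a stranded Illumina mRNA ligation kit, per the labels. The authors deposited 1 table of raw read counts per Ensembl gene. The submitters' processing notes name STAR, DESeq2 and GRCm39, with no versions. The counting tool, its use of strand and the annotation release are not given in the sources used here. Symbols came from GENCODE M21 (GRCm38), which matched 51880 of 57186 identifiers (90.7%) and all 40 genes, and exons were read from the same annotation.

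Counts were analysed as deposited with edgeR 4.0.16 in R 4.3.3: filterByExpr (minimum count 10, minimum total 15), TMM scaling, and the quasi-likelihood F test with Benjamini-Hochberg adjustment over all genes tested, called at an adjusted p under 0.05. Each line was fitted over its 15 libraries, and differences between the lines over all 30. The SE of a log2 fold change was its size divided by the root of the F statistic. CPM use TMM-scaled library sizes. A library stood apart where the smaller SD of its log differences to its replicates was over 1.5 times that of the other pair, a rule chosen after seeing the data. Alternatives were RLE scaling, library size alone, no filter, a mean of at least 5 CPM, DESeq2 1.42.0, limma 3.58.1 voom with quality weights, fits of only the groups compared, a replicate block by letter, and leaving out single libraries. The fits were tested on simulated data.

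Genes given with every library are, for each line, the 3 with the largest called rise and fall at 1, 2, 5 and 48 h, the largest called difference between the lines in each direction at 5 and 48 h, and Clk1 and Clk4. Srsf3, Tra2a, Rbm3, Hnrnpl, Ptbp2 and others shown outside that rule at a time were chosen after their values were seen. The 40 genes and all lists were chosen with earlier results of these data known.

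Same-letter libraries did not deviate together across all times: r ranged from -0.767 to 0.698 in CGR8 and from -0.481 to 0.538 in NIH/3T3. Of 30 pairs in each line, 14 and 13 were above 0.1. For replicate B of NIH/3T3 r was positive at most pairs of times, for example 0.538 for 0 h with 2 h and 0.436 for 1 h with 2 h. It was -0.142 for 1 h with 5 h. Whether same-letter libraries share an origin was not tested. The main fits did not pair libraries by letter.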

Additional observations from a re-analysis of the deposited data

Results flagged for a closer look

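Each result here was picked out because the change against 0 h differed between the lines in the interaction test of the model of 30 libraries (edgeR's quasi-likelihood test, adjusted p under 0.05). Values are log2 differences, CGR8 minus NIH/3T3. At 48 h the difference was negative for Ptbp3 (-0.82) and Hnrnpul2 (-0.67). It was positive for the SR genes Srsf2 (0.55), Srsf6 (0.74) and Srsf9 (0.79), for Tra2b (0.30) and Ptbp2 (0.98), for the hnRNP A/B and D genes Hnrnpa1 (0.60), Hnrnpa2b1 (0.77), Hnrnpa3 (0.36) and Hnrnpd (0.44), and for Hnrnpc (0.47), Hnrnpf (0.48), Hnrnph3 (0.74), Hnrnpl (0.37), Hnrnpm (0.50) and Hnrnpu (0.44). At 5 h it was negative for Ptbp3 (-0.80) and Rbm5 (-0.65) and positive for Hnrnpd (0.42), Hnrnpf (0.35), Hnrnpl (0.53) and Srsf9 (0.51). These calls cover 42.5% of the 40 genes at 48 h, against 21.9% of all genes. At 5 h they cover 15%, close to the 13.3% of all genes. Many of them were lost with single libraries left out, as given above.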

How the results depend on the processing

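Of 131 counts of called genes recomputed under a setting other than leaving out 1 library at a time, 114 stayed within 1.5 times the reported count and 17 did not. The fits without the libraries that stood apart are among the 131. The shares of all genes called under other settings, or with libraries left out, are not given here. For NIH/3T3 at 1 h the count of 0 was 2 with no filter, 1 with DESeq2, 13 with voom and 9 without the libraries that stood apart, and for CGR8 at 1 h it was 2 with voom. At 48 h voom gave 29 in NIH/3T3 and 28 in CGR8, and the compared groups alone gave 29 in NIH/3T3. The compared groups alone gave 3 in CGR8 at 2 h. The difference between the lines was called for 1 gene at 2 h with a mean of at least 5 CPM, with DESeq2 and without the libraries that stood apart, for 2 with no filter, 21 with voom and 13 without those libraries at 5 h, and for 29 with voom and 26 with the compared groups alone at 48 h. Leaving out 1 library at a time gave 11 to 12 called genes for NIH/3T3 at 48 h, 4 to 11 for CGR8 at 2 h, 9 to 15 for CGR8 at 48 h and 1 to 9 for the 5 h difference between the lines. With the replicate block by letter, counts were 29 in NIH/3T3 and 20 in CGR8 at 5 h, and 15 and 14 at 48 h. For the differences between the lines they were 4 at 5 h and 18 at 48 h. In the pairing check, 12 of 30 comparisons in CGR8 and 13 of 30 in NIH/3T3 were highest for the library of the same letter.

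Of 1157 recomputed values of single genes, 1007 kept direction and call, 113 lost the call, 20 gained it and 17 changed sign, none of these called. Clk1 in CGR8 at 2 h was -0.05 with voom and -0.21 without the libraries that stood apart, and between -0.21 and 0.34 with 1 library left out. Clk4 in CGR8 at 1 h was -0.0049 with RLE scaling, -0.0352 with no filter, -0.0052 with DESeq2, -0.0929 with voom and -0.1957 without the libraries that stood apart, and between -0.1957 and 0.137 with 1 left out. Clk4 in NIH/3T3 at 1 h was 0.0643 with voom and 0.109 without the libraries that stood apart, and between -0.1301 and 0.11 with 1 left out. The cause was not tested. The lowest count of any of the 40 genes in a library was 162, for Clk4.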
